A study of Homo sapiens with 24 samples.

Results

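UNC5B, UNC5C, NTN1, NTN4 and NEO1 are receptors and ligands of the netrin system, and their RNA was followed through 24 RNA-seq libraries of cultured human pancreas cells. The 5 genes were taken by symbol from tables of 48162 genes, 1 table per library. They were selected on the FPKM of UNC5B, which rose most in hTERT-HPNE cells given vesicles of either source relative to their control medium, so UNC5B in that line is described below without a test, as are all 5 genes for vesicles against residual medium in that line. Of the 5, UNC5B, NTN4 and NEO1 reached a mean of at least 1 FPKM (reads per unit of gene length and of library total) over the 12 libraries of each line and could be tested, whereas UNC5C and NTN1 did not. In HPDE, UNC5B reached that mean (1.21 FPKM) only through the libraries with PPCL-68 EV, since the other 9 averaged 0.988 FPKM.

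The recipient cells were hTERT-HPNE (HPNE below), a pancreas line immortalised with telomerase, and HPDE-H6c7 (HPDE below), a pancreatic duct epithelial line immortalised with papillomavirus genes. Both were grown without serum in keratinocyte medium and kept for 24 h in 1 of 4 conditions with 3 libraries each. Untreated cells received fresh serum-free medium. Residual medium, the liquid that remained after vesicles had been isolated, was the negative control, and the remaining wells received extracellular vesicles (EV), 1e10 per well, shed by PPCL-68 cells or by the pancreatic cancer line PANC-1. Each recipient is a single established line, and the study called the libraries biological triplicates without naming what the replicate numbers mark, so p-values measure the spread between these samples.

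Netrins are secreted proteins related to laminins, first known for steering growing axons and also present in epithelia, vessels and the pancreas. UNC5 receptors repel cells from netrin-1 and are called dependence receptors because, without a ligand, they can pass a death signal. Neogenin, the product of NEO1, binds netrins and repulsive guidance molecules, and netrin-4, the product of NTN4, lies in basement membranes, where it binds laminin.

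HPNE libraries held 29874928 to 46490312 reads in genes and HPDE libraries 29209142 to 42206773. All 7 epithelial markers (EPCAM, keratins, CDH1 and CLDN4) were at a mean of at least 1 FPKM in HPDE, but only KRT8 and KRT18 were in HPNE, where all 7 mesenchymal markers (VIM, CDH2, collagens and others) were and summed to 9075 to 13666 FPKM. Endothelial markers summed to at most 1.60 FPKM in any library, so the defining genes of vessel cells, a usual site of UNC5B, were near 0. In each HPNE group 1 library stood apart from the other two: replicate 3 of the untreated and residual medium groups and replicate 1 of both vesicle groups, each differing from its partners 2.05 to 3.31 times as much as these differed from each other (1.08 to 1.24 times in HPDE). HPNE results are therefore also given without these 4 libraries. That leaves the closer pair of each group, so the spread shrinks by construction. RNA was measured in bulk, so fewer cells of a kind and less RNA per cell cannot be told apart.

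UNC5B (ENSG00000107731, hg19 chr10:72972327-73062621, plus strand) was abundant in HPNE under every condition except residual medium. Its level in untreated HPNE cells was 76.5, 72.4 and 53.3 FPKM (67.4 ± 12.4, SD, n = 3). In residual medium it was 4.30, 5.02 and 23.0 FPKM (10.8 ± 10.6, n = 3). With PANC-1 EV it was 59.8, 64.0 and 68.4 FPKM (64.1 ± 4.26, n = 3), and with PPCL-68 EV 91.8, 84.5 and 87.8 FPKM (88.1 ± 3.64, n = 3). The 3 residual medium libraries therefore lay below all 9 others, the PANC-1 EV libraries lay inside the range of the untreated ones, and the PPCL-68 EV libraries lay above both.

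The ratio of mean FPKM over residual medium was 5.95 for PANC-1 EV and 8.18 for PPCL-68 EV, and it was 6.26 for cells that had received no vesicles at all. On the scale of log2(FPKM + 1), used for all differences below, PANC-1 EV exceeded residual medium by 2.83 and PPCL-68 EV exceeded it by 3.28 (SE 0.43 for each), and residual medium lay at -2.89 against untreated cells. Against untreated cells the difference was -0.06 for PANC-1 EV (95% confidence interval -1.01 to 0.89) and 0.40 for PPCL-68 EV (-0.55 to 1.35). These intervals use 1 spread shared by all 12 HPNE libraries, including those of residual medium, which ranged from 4.30 to 23.0 FPKM. They therefore do not describe the spread of the groups compared alone. The large difference from residual medium was thus present with and without vesicles, while the ratio of PPCL-68 EV over untreated cells was 1.31. Replicate 3 of residual medium was the highest of its group: without it the differences from residual medium were 3.52 and 3.98, and the difference of residual medium from untreated cells was -3.58. Without all 4 libraries that stood apart, PANC-1 EV and PPCL-68 EV lay at -0.17 and 0.21 against untreated cells.

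**Figure D1:**
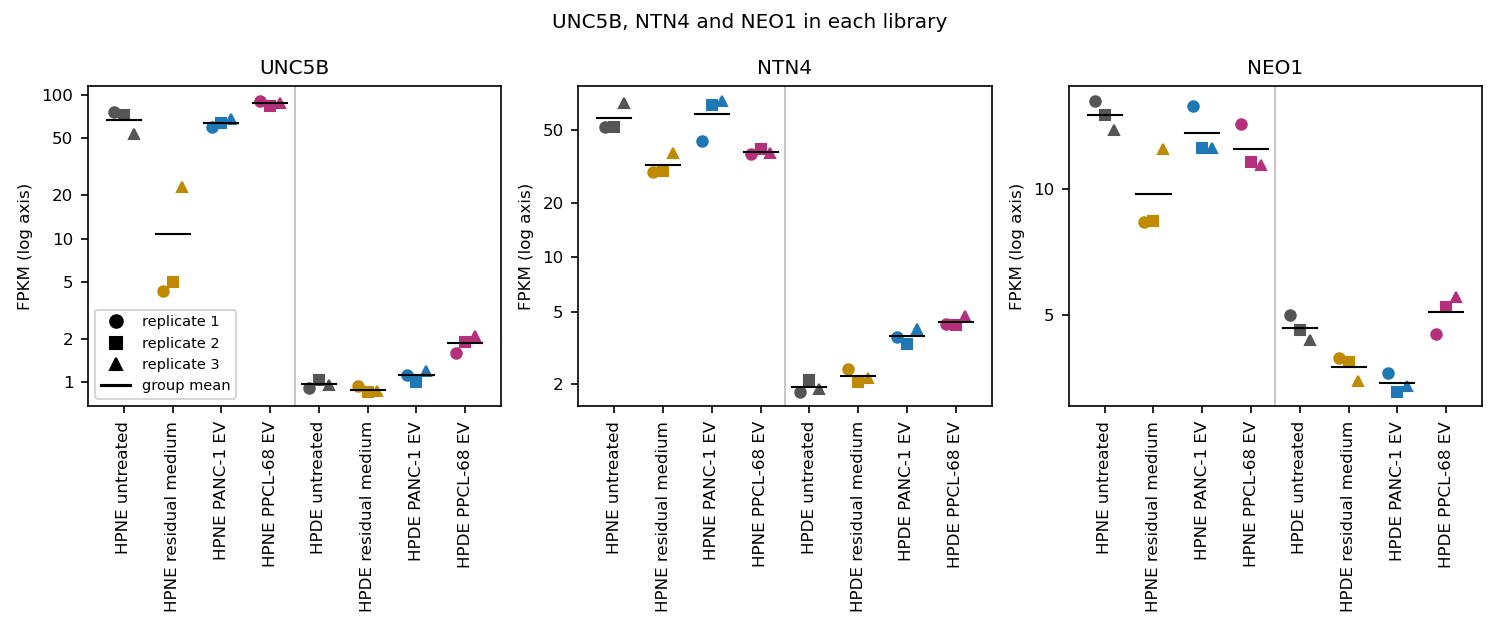
FPKM of UNC5B, NTN4 and NEO1 in each of the 24 libraries (log axes), by cell line and treatment, with symbols for the replicate number and bars for the group mean of 3. UNC5B in HPNE is low in residual medium only, at a mean of 10.8 FPKM against 64.1 to 88.1 in the other groups, and all 3 genes are lower in HPDE.

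HPDE cells held far less UNC5B, and its highest level there was with PPCL-68 EV. The untreated libraries had 0.906, 1.03 and 0.957 FPKM (0.964 ± 0.0616, SD, n = 3), and those in residual medium 0.939, 0.856 and 0.867 FPKM (0.887 ± 0.0447, n = 3). With PANC-1 EV the values were 1.13, 1.01 and 1.20 FPKM (1.11 ± 0.0988, n = 3), and with PPCL-68 EV 1.59, 1.91 and 2.10 FPKM (1.87 ± 0.260, n = 3). The PPCL-68 EV libraries lay above all others of the line, and the remaining groups overlapped except PANC-1 EV and residual medium. These levels rest on 187 to 486 reads per library, against 1138 to 23889 in HPNE.

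In limma's test with Benjamini-Hochberg adjustment over all genes tested, used for every adjusted p here, UNC5B with PPCL-68 EV differed by 0.60 from residual medium (SE 0.087, adjusted p = 2.44e-05) and by 0.54 from untreated cells (adjusted p = 6.37e-05). PANC-1 EV lay at -0.44 against PPCL-68 EV (adjusted p = 0.000814). Because the group where UNC5B was high decided that it passed the filter, these p-values are no independent support. In the fit without a filter, where every gene entered, they were 0.000249, 0.000497 and 0.00398 after adjustment. PANC-1 EV differed from residual medium by 0.16 (adjusted p = 0.116), although limma voom on the recovered reads gave 0.32 (adjusted p = 0.0378). PANC-1 EV differed from untreated cells by 0.11 (95% confidence interval -0.08 to 0.29, adjusted p = 0.307), and residual medium by -0.06 (-0.24 to 0.13, adjusted p = 0.688). The low level in residual medium seen in HPNE thus had no counterpart past the threshold in HPDE, and the difference between the lines was not tested for this gene. Means of the 8 groups ran, from the lowest, HPDE residual medium, untreated, PANC-1 EV and PPCL-68 EV, then HPNE residual medium, PANC-1 EV, untreated and PPCL-68 EV. Neighbours whose ranges overlapped were HPDE residual medium and untreated, HPDE untreated and PANC-1 EV, and HPNE PANC-1 EV and untreated.

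UNC5B made up nearly all RNA of the UNC5 receptor genes. Its share of the summed FPKM of UNC5A, UNC5B, UNC5C and UNC5D was at least 99.5% in every HPNE library and between 96.6 and 98.7% in HPDE. UNC5A had at most 2 reads and UNC5D at most 1 read in any library. The antisense gene UNC5B-AS1 lies inside UNC5B on the other strand (hg19 chr10:72976981-72977985), shares no exon with it in GENCODE 29, and had 0 to 13 reads, and the library kit kept no strand. DCC, the attractive netrin receptor, had 0 reads in all HPDE libraries and 0 to 13 in HPNE.

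UNC5C (ENSG00000182168, hg19 chr4:96083655-96470357, minus strand), a second repulsive receptor, was at the limit of detection. Its HPNE libraries held 4, 1 and 0 reads in untreated cells, 9, 0 and 0 in residual medium, 10, 3 and 0 with PANC-1 EV, and 0, 4 and 2 with PPCL-68 EV. Only 4 of these 12 libraries exceeded 3 reads, the floor that a count of 0 allows, which corresponded to 0.00653 to 0.0102 FPKM. All 12 HPDE libraries exceeded it, with 5 to 13 reads, and the treatment groups overlapped. No difference between treatments was detectable at this depth in either line.

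**Figure D2:**
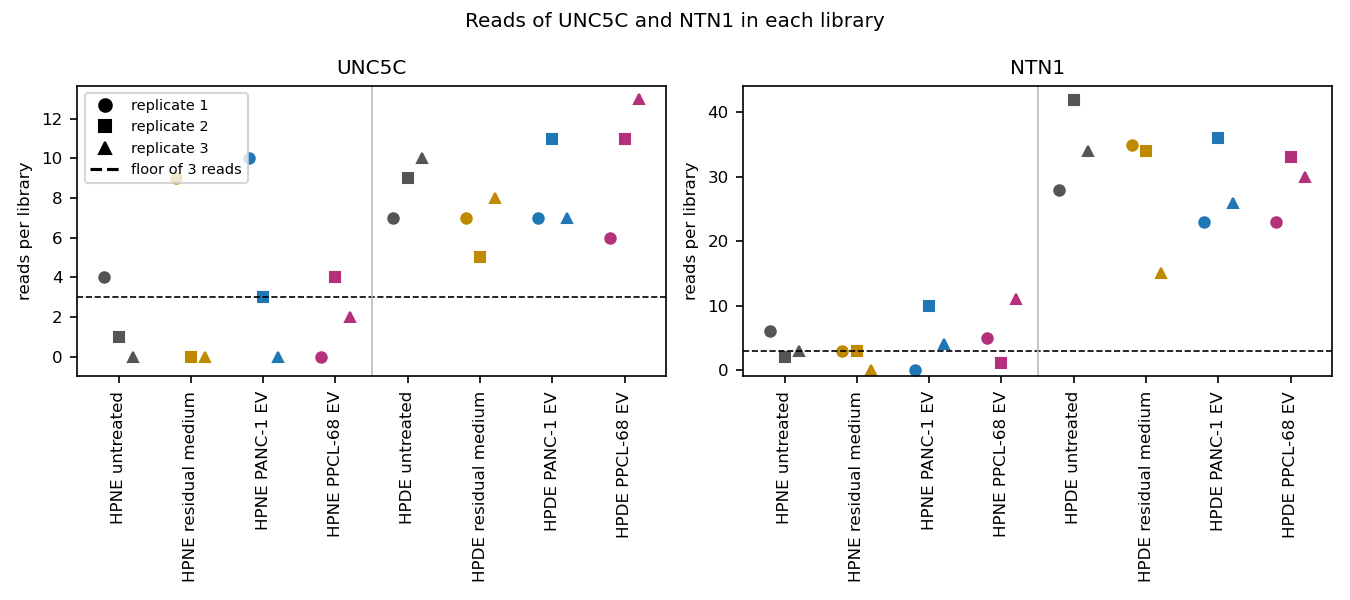
Reads of UNC5C and NTN1 in each of the 24 libraries, by cell line and treatment, with symbols for the replicate number. The dashed line marks 3 reads: HPNE libraries lie at or near it for both genes, while NTN1 reaches 15 to 42 reads in HPDE.

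NEO1 (ENSG00000067141, hg19 chr15:73344051-73597547, plus strand), which encodes neogenin, differed least between the lines of the 3 genes tested. NEO1 and NTN4 both fell in residual medium in HPNE, so the 250 bases before their annotated starts are shown (RefSeq, GRCh38.p14), here for NEO1 at chr15:73051652-73051901 on the plus strand and further on for NTN4. Capitals mark a GC box (GGGCGG on either strand), the binding motif of Sp1.
NEO1: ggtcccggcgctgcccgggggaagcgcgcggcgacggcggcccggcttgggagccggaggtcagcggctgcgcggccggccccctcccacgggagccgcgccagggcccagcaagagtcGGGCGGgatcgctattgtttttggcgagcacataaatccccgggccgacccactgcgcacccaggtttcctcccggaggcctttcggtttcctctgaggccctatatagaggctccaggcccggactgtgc
The window was 71.6% G or C, against a median of 58.0% over 35116 RefSeq windows of the same length, and 42.6% of those windows held a GC box. On either strand it held neither TGATGNAA, the element of ATF4 that 3.14% of windows held, nor the endoplasmic reticulum stress element (ERSE), which 0.0740% held. Windows were matched for 3 of the 5 genes, UNC5C, NTN4 and NEO1.

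In HPNE, NEO1 fell in residual medium and did not pass the threshold with either vesicle type against untreated cells. Untreated libraries had 16.2, 15.003 and 13.8 FPKM (15.003 ± 1.21, SD, n = 3), and residual medium libraries 8.34, 8.39 and 12.4 FPKM (9.72 ± 2.35, n = 3). PANC-1 EV gave 15.7, 12.5 and 12.5 FPKM (13.6 ± 1.84, n = 3), and PPCL-68 EV gave 14.2, 11.6 and 11.4 FPKM (12.4 ± 1.58, n = 3). Residual medium lay below all untreated and PANC-1 EV libraries, while its replicate 3 overlapped those with PPCL-68 EV. The difference of residual medium from untreated cells was -0.60 (SE 0.15, adjusted p = 0.00943), and -0.83 without the 4 libraries that stood apart. PANC-1 EV lay at -0.14 (adjusted p = 0.525) and PPCL-68 EV at -0.26 (adjusted p = 0.185) against untreated cells, and without those 4 libraries at -0.30 (adjusted p = 0.00124) and -0.41 (adjusted p = 0.000115). Vesicles exceeded residual medium by 0.46 for PANC-1 and 0.34 for PPCL-68, given without a test.

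In HPDE, NEO1 fell with PANC-1 EV and differed between the vesicle sources. The untreated libraries had 5.002, 4.62 and 4.37 FPKM (4.66 ± 0.318, SD, n = 3), residual medium 3.96, 3.87 and 3.48 (3.77 ± 0.252, n = 3), PANC-1 EV 3.64, 3.29 and 3.40 (3.44 ± 0.179, n = 3) and PPCL-68 EV 4.52, 5.22 and 5.52 (5.09 ± 0.515, n = 3). PANC-1 EV and residual medium overlapped, as did PPCL-68 EV and untreated cells, and the first pair lay below the second. PANC-1 EV differed by -0.35 from untreated cells (SE 0.075, adjusted p = 0.000977), by -0.45 from PPCL-68 EV (adjusted p = 0.000188) and by -0.10 from residual medium (adjusted p = 0.243). PPCL-68 EV exceeded residual medium by 0.35 (adjusted p = 0.000793) and differed from untreated cells by 0.10 (95% confidence interval -0.06 to 0.26, adjusted p = 0.242). Residual medium lay at -0.25 against untreated cells (adjusted p = 0.0317), a call that was lost without any filter on low values (adjusted p = 0.0865), with the replicate number as a block (adjusted p = 0.0543) and without untreated replicate 1 or 2 or residual medium replicate 2 or 3 (adjusted p = 0.125, 0.0704, 0.0519 and 0.119). Over the 8 groups, NEO1 means rose from HPDE PANC-1 EV through residual medium, untreated and PPCL-68 EV to HPNE residual medium, PPCL-68 EV, PANC-1 EV and untreated. Ranges of neighbours overlapped except between HPDE residual medium and untreated, and between the lines.

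NTN4 (ENSG00000074527, hg19 chr12:96051583-96184930, minus strand) was the only netrin gene tested in both lines. RefSeq lists a pair of starts for it, and the 250 bases before each lie at chr12:95791156-95791405 and chr12:95790765-95791014 on the minus strand (GRCh38.p14). The first held none of the 3 motifs searched in NEO1, and the second held 4 GC boxes in capitals, of which 2 overlap, and neither of the other motifs.
NTN4, first start: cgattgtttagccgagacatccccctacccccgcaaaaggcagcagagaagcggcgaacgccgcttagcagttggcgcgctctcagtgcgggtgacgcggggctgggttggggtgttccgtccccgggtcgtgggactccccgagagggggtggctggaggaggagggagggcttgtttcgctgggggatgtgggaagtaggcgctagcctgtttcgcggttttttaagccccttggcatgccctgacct
NTN4, second start: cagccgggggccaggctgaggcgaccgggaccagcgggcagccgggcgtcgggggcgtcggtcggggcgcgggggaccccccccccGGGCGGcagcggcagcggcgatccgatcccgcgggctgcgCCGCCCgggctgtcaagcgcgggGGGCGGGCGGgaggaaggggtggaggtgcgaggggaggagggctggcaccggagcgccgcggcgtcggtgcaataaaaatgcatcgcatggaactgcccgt
The windows were 64.4% and 78.4% G or C.

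In HPNE, NTN4 fell in residual medium and, by a smaller margin, with PPCL-68 EV. Untreated libraries had 52.0, 52.1 and 71.1 FPKM (58.4 ± 11.01, SD, n = 3), and residual medium libraries 29.6, 30.0 and 37.4 FPKM (32.3 ± 4.38, n = 3). PANC-1 EV gave 43.8, 68.6 and 73.0 FPKM (61.8 ± 15.8, n = 3), and PPCL-68 EV gave 37.2, 39.6 and 37.8 FPKM (38.2 ± 1.26, n = 3). Residual medium and PPCL-68 EV overlapped and lay below every untreated and PANC-1 EV library, and the last pair overlapped. The difference from untreated cells was -0.83 in residual medium (SE 0.18, adjusted p = 0.00542). For PPCL-68 EV it was -0.58 (adjusted p = 0.0249). The summed FPKM of the 7 mesenchymal markers moved too, from 13083 to 13666 in untreated cells to 9075 to 11023 under PPCL-68 EV, 9980 to 13418 in residual medium and 11217 to 13160 under PANC-1 EV, and its part in the NTN4 and NEO1 differences of HPNE was not tested.

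The call for PPCL-68 EV was lost with median-of-ratios size factors (-0.50, adjusted p = 0.0605), without a filter on low values (adjusted p = 0.0643) and without PPCL-68 EV replicate 1, 2 or 3 or untreated replicate 3 (adjusted p = 0.0546, 0.0548, 0.0664 and 0.0881). Without the 4 libraries that stood apart it was -0.42 (adjusted p = 3.15e-05), and the residual medium difference was -0.78. PANC-1 EV lay at 0.06 against untreated cells (95% confidence interval -0.34 to 0.47, adjusted p = 0.833). Without the 4 libraries it was 0.44 (adjusted p = 3.51e-05), and PANC-1 EV replicate 1, at 43.8 FPKM, was 1 of them. NTN4 was 0.65 higher with PANC-1 EV than with PPCL-68 EV (adjusted p = 0.0643). The fit with the replicate block, over all 12 HPNE libraries, gave an adjusted p of 0.0374. Same-numbered libraries deviated together between the vesicle groups, though not each best with its own number, and did not in the other HPNE comparisons. Against residual medium PANC-1 EV lay at 0.89 and PPCL-68 EV at 0.24, given without a test.

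In HPDE, NTN4 rose with both vesicle types against both controls. Untreated libraries had 1.82, 2.12 and 1.89 FPKM (1.94 ± 0.157, SD, n = 3), residual medium 2.43, 2.05 and 2.16 (2.21 ± 0.197, n = 3), PANC-1 EV 3.65, 3.34 and 4.01 (3.67 ± 0.338, n = 3) and PPCL-68 EV 4.30, 4.23 and 4.73 (4.42 ± 0.273, n = 3). Both controls overlapped each other and lay below every vesicle library, and all PPCL-68 EV libraries lay above all PANC-1 EV libraries. PANC-1 EV exceeded untreated cells by 0.67 (SE 0.077, adjusted p = 3.92e-06) and residual medium by 0.54 (adjusted p = 3.02e-05). PPCL-68 EV exceeded them by 0.88 (adjusted p = 1.46e-07) and 0.76 (adjusted p = 7.76e-07). The difference of PANC-1 EV from PPCL-68 EV was -0.22 (adjusted p = 0.0309), which did not pass without a filter on low values (adjusted p = 0.0745) or without PANC-1 EV replicate 1 or 2 or PPCL-68 EV replicate 3 (adjusted p = 0.0639, 0.124 and 0.113). Residual medium lay at 0.13 against untreated cells (adjusted p = 0.269). The summed FPKM of the 7 epithelial markers moved with the vesicles in these libraries, from 2767 to 3008 in untreated cells and 3130 to 3506 in residual medium to 1552 to 1814 with PANC-1 EV and 1435 to 1448 with PPCL-68 EV, and its part in the NTN4, NEO1 and UNC5B differences was not tested.

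Against untreated cells, NTN4 therefore moved in opposite directions in the lines for PPCL-68 EV, and the difference of the effects was itself tested. Against residual medium the directions were not opposite. PPCL-68 EV lay at 0.24 there in HPNE (95% confidence interval -0.16 to 0.65, given without a test) and at 0.76 in HPDE. The effect in HPDE minus that in HPNE, against untreated cells, was 1.47 for PPCL-68 EV (SE 0.20, adjusted p = 1.65e-05), 0.95 for residual medium (adjusted p = 0.00163) and 0.60 for PANC-1 EV (adjusted p = 0.0393). Of all 12377 genes, 40.6%, 38.1% and 23.2% differed between the lines in these 3 tests. For PANC-1 EV it was 0.23 without the 4 HPNE libraries that stood apart (adjusted p = 0.0513), and it was also lost without any 1 of 6 libraries: PANC-1 EV replicate 1 (0.38, adjusted p = 0.0766) or untreated replicate 3 (0.46, adjusted p = 0.0861) of HPNE, and PANC-1 EV replicate 1 or 3 or untreated replicate 1 or 3 of HPDE (0.55 to 0.60). For NEO1 the same differences were 0.36, 0.35 and -0.21 (adjusted p = 0.0990, 0.112 and 0.391), and without the 4 libraries those of PPCL-68 EV and residual medium were 0.51 and 0.58 (adjusted p = 0.000241 and 6.45e-05). The 3 contrasts share their untreated libraries. From the lowest, the NTN4 means ran HPDE untreated, residual medium, PANC-1 EV and PPCL-68 EV, then HPNE residual medium, PPCL-68 EV, untreated and PANC-1 EV. Overlapping neighbours were the HPDE controls, HPNE residual medium and PPCL-68 EV, and HPNE untreated and PANC-1 EV.

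**Figure D3:**
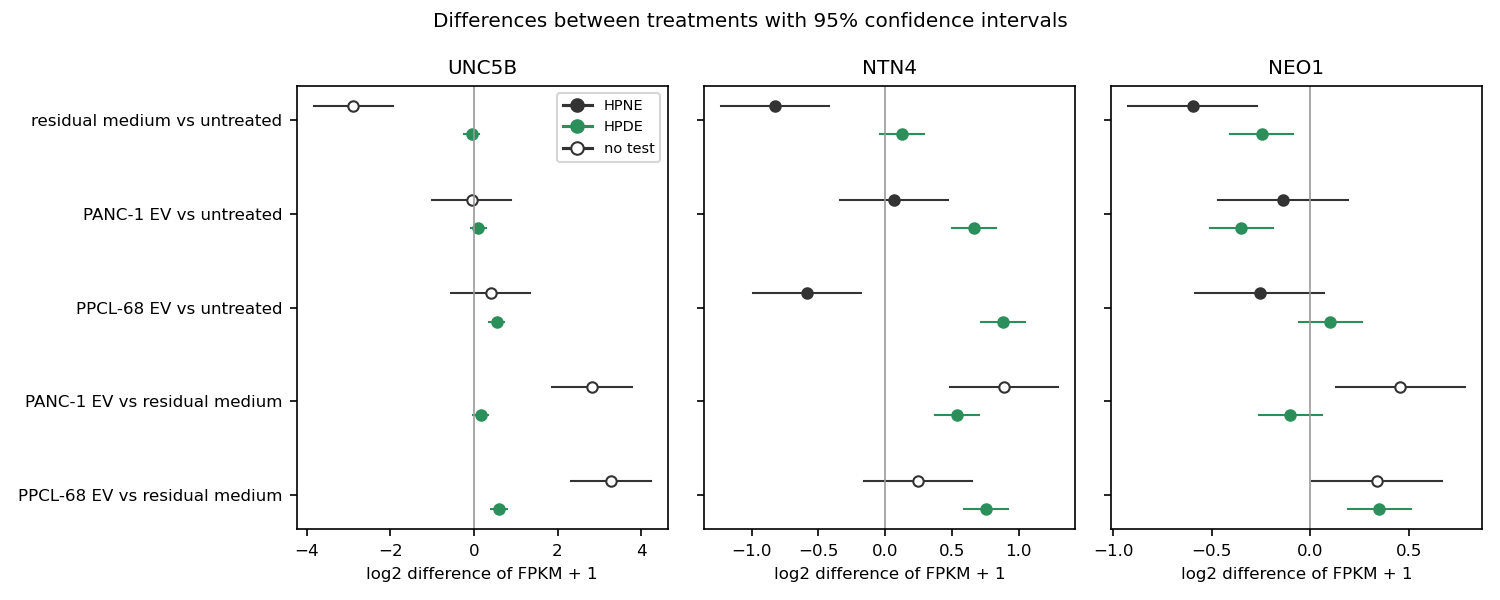
Differences of log2(FPKM + 1) for UNC5B, NTN4 and NEO1 in HPNE (black) and HPDE (green), with 95% confidence intervals from limma; open circles were not tested. For NTN4 with PPCL-68 EV against untreated cells the point is at -0.58 in HPNE and at 0.88 in HPDE; each panel has its own horizontal scale.

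NTN1 (ENSG00000065320, hg19 chr17:8924859-9147317, plus strand), the gene of netrin-1, the main ligand of UNC5 receptors, was scarce in both lines. HPNE libraries held 6, 2 and 3 reads in untreated cells, 3, 3 and 0 in residual medium, 0, 10 and 4 with PANC-1 EV and 5, 1 and 11 with PPCL-68 EV. Of these, 5 of 12 libraries exceeded the floor of 3 reads. HPDE libraries held 15 to 42 reads, or 0.0751 to 0.173 FPKM, with the treatments overlapping, so that a change with treatment was not detectable at this depth. The lines did not overlap in NTN1 reads.

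Across the lines, UNC5B, NTN4 and NEO1 were all higher in HPNE. For untreated cells the ratio of mean FPKM, HPNE over HPDE, was 69.9 for UNC5B, 30.1 for NTN4 and 3.22 for NEO1. The differences, HPDE against HPNE, were -4.32 for NTN4 (SE 0.14, adjusted p = 1.70e-16) and -1.50 for NEO1 (SE 0.12, adjusted p = 4.10e-10), and -5.11 for UNC5B, given without a test. In this comparison 83.8% of all 12377 genes tested differed. The ratio stayed above 1 under all 4 treatments, between 8.64 and 30.1 for NTN4 and between 2.44 and 3.94 for NEO1.

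Counted over the genes tested in HPDE, members differed in 3 of 3 for PPCL-68 EV against residual medium (all genes 67.7%), 2 of 3 for PPCL-68 EV against untreated cells (66.3%), 1 of 3 for PANC-1 EV against residual medium (63.3%), 2 of 3 for PANC-1 EV against untreated cells (60.6%), 3 of 3 for PANC-1 EV against PPCL-68 EV (50.1%) and 1 of 3 for residual medium against untreated cells (20%). In HPNE, where NTN4 and NEO1 were tested, 2 of 2 differed for residual medium against untreated cells (43.9%), 1 of 2 for PPCL-68 EV (42.5%), 0 for PANC-1 EV (21.1%) and 0 between the vesicle sources (5.47%). With 2 or 3 members tested, and UNC5B in HPDE past the filter only through PPCL-68 EV, nothing is read from these counts. The all-gene counts moved by over 1.5 times without single libraries. Between the vesicle sources in HPNE, 629 genes became 133 to 410 without PANC-1 EV replicate 1, 2 or 3, PPCL-68 EV replicate 2 or 3 or untreated replicate 1 or 2, and 1308 without residual medium replicate 3. For PANC-1 EV against untreated HPNE, 2430 became 1043 to 1213 without PANC-1 EV replicate 2 or 3 or untreated replicate 1 or 2. For residual medium against untreated cells, 5052 became 3000 to 3180 without replicate 1 or 2 of either group in HPNE, and 2443 became 1427 to 1613 without residual medium replicate 1 or untreated replicate 1 or 3 in HPDE. For PANC-1 EV against residual medium in HPNE, 2784 became 1348 to 1672 without residual medium replicate 1 or 2 or PANC-1 EV replicate 2, and 4444 without residual medium replicate 3.

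Related genes were taken from 7 lists holding 110 genes, 71 of them tested in HPNE and 80 in HPDE. Against untreated cells, 12 rose and 7 fell in HPNE with PANC-1 EV, 19 rose and 18 fell with PPCL-68 EV, and 22 rose and 24 fell in residual medium. In HPDE the counts were 29 and 25, 33 and 30, and 8 and 22. For PANC-1 EV and PPCL-68 EV these were 26.8% and 52.1% of the listed genes tested in HPNE, against 21.1% and 42.5% of all genes. In HPDE they were 67.5% and 78.8%, against 60.6% and 66.3%. Each list below holds few tested genes, so nothing is read from its counts. Against residual medium, 20 rose and 3 fell with PANC-1 EV and 12 rose and 17 fell with PPCL-68 EV in HPNE (all genes 24.2% and 39.9%), and 31 rose and 20 fell and 35 rose and 23 fell in HPDE. These are 32.4% and 40.8% of the listed genes tested in HPNE. The HPDE shares were 63.7% and 72.5%, against 63.3% and 67.7% of all genes. Residual medium was the condition where the listed genes stood furthest from all genes, at 64.8% against 43.9% in HPNE and 37.5% against 20% in HPDE. The lists were chosen with earlier results of these data known, so nothing is read from this gap. Medians against untreated cells lay between -0.08 and 0.03 for the listed genes and between -0.05 and -0.01 for all genes tested. Without the 4 HPNE libraries that stood apart, 69 listed genes were tested. Of these, 56 differed from untreated cells for PPCL-68 EV and 53 for PANC-1 EV, and 52 differed between PANC-1 EV and residual medium. The count for PANC-1 EV against untreated cells was 10 or 11 without PANC-1 EV replicate 2 or 3 or untreated replicate 1 or 2, that against residual medium 12 to 14 without PANC-1 EV replicate 2 or 3 or residual medium replicate 1 or 2, and that of residual medium 28 or 29 without its replicate 2 or untreated replicate 1 or 2. All-gene counts also moved when libraries were left out, as given above and further on, so nothing is read from these listed counts. With size factors the split in HPNE residual medium turned to 26 higher and 18 lower, and that of all genes from 2153 higher and 2899 lower to 3328 and 2083. All-gene splits also turned for PANC-1 EV against untreated cells (1105 and 1325 to 1509 and 1079), for PPCL-68 EV against untreated cells (2151 and 2740 to 2826 and 2296) for PANC-1 EV against residual medium (1599 and 1185 to 1341 and 1849) and for PPCL-68 EV against residual medium (2334 and 2261 to 2153 and 2725) in HPNE. In HPDE they turned against untreated cells for PANC-1 EV (3214 and 4199 to 3706 and 3566), PPCL-68 EV (3684 and 4416 to 4073 and 3952) and residual medium (1214 and 1229 to 1311 and 1099).

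**Figure D4:**
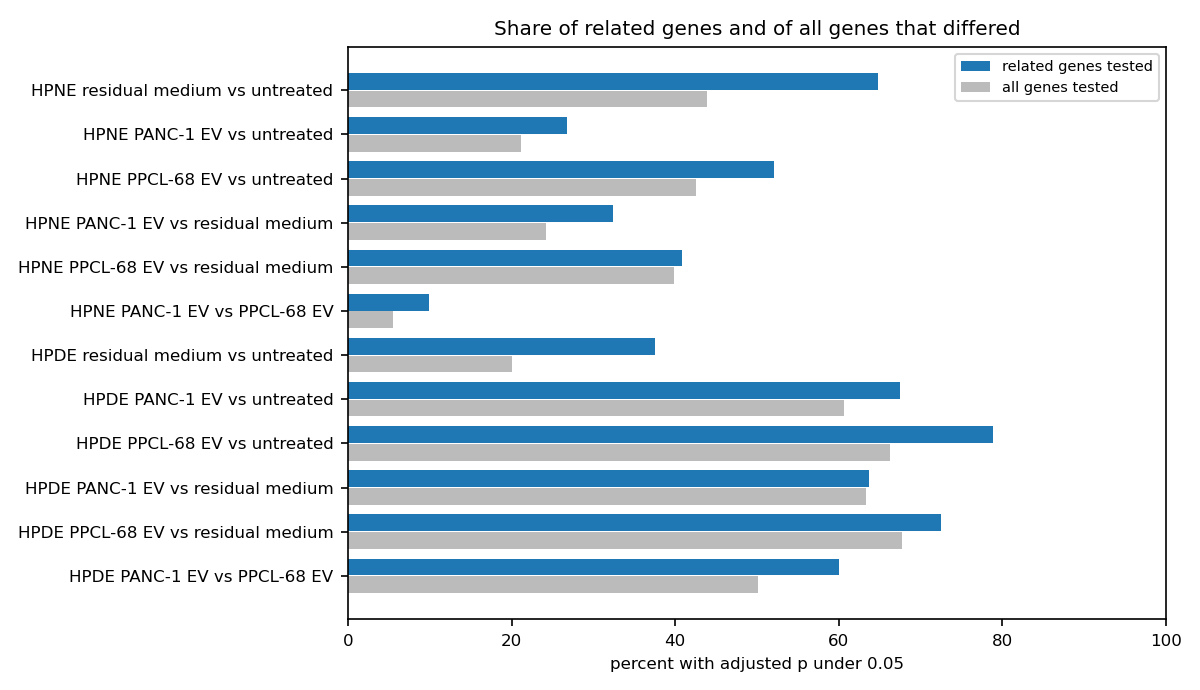
Percent of the listed related genes (blue) and of all genes tested (grey) with an adjusted p under 0.05, by comparison. The bars differ most for residual medium against untreated cells, at 64.8% and 43.9% in HPNE. The lists were chosen with earlier results of these data known, so nothing is read from the gap.

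Among 14 other ligands and partners of UNC5 receptors and neogenin, 8 were tested in each line. In HPNE, residual medium raised 1 and lowered 6, PPCL-68 EV raised 2 and lowered 1, and none passed with PANC-1 EV, all against untreated cells. In HPDE the counts were 0 and 4, 3 and 4, and 3 and 3. In the same order these were 87.5%, 37.5% and 0% of the genes tested in HPNE, against 43.9%, 42.5% and 21.1% of all genes. In HPDE they were 50%, 87.5% and 75%, against 20%, 66.3% and 60.6%. FLRT2, an adhesion protein and ligand of UNC5 receptors, had 5.39 ± 0.588 FPKM in untreated HPNE, 3.08 ± 0.200 in residual medium, and with vesicles 6.95 ± 1.03 (PANC-1) and 11.6 ± 2.21 (PPCL-68; SD, n = 3 each). PPCL-68 EV raised FLRT2 in HPNE by 0.97 (adjusted p = 0.00031) and in HPDE by 0.47 (adjusted p = 1.46e-06), and it fell in residual medium in both (-0.64 and -0.42, adjusted p = 0.00454 and 6.28e-05). With PANC-1 EV it rose in HPDE (0.17, adjusted p = 0.0122, lost in 1 of 18 alternatives) and did not pass in HPNE (0.31, adjusted p = 0.127). ADAM17, a protease that sheds cell surface proteins, rose in HPDE with both vesicle types (PANC-1 0.56, PPCL-68 0.67) and lay at -0.06 and -0.36 in HPNE (adjusted p = 0.785 and 0.0529). It fell in HPNE residual medium (-0.48, adjusted p = 0.0162), a call lost in 3 of 19 alternatives. RGMB, a ligand of neogenin, fell in HPDE with both (-0.20 and -0.31) and rose in residual medium in HPNE (1.38, adjusted p = 0.0131), a call lost without residual medium replicate 1 or 2, untreated replicate 1 or 2, or with only the 6 libraries compared.

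The 13 other netrins, netrin receptors and netrin-binding proteins were mostly near 0: 1 was tested in HPNE and 4 in HPDE, named here after their values were seen. DSCAM, a netrin receptor of neurons, had 1.66 to 5.31 FPKM in HPDE and rose against untreated cells with PANC-1 EV (1.14, adjusted p = 1.05e-08) and PPCL-68 EV (0.84, adjusted p = 1.65e-07). ADORA2B, an adenosine receptor reported to bind netrin-1, fell with both (-0.38 and -0.52, adjusted p = 0.0003 and 1.35e-05). The other two did not pass against untreated cells in HPDE with vesicles: NTNG1, a membrane-anchored netrin, lay at -0.10 for both, and MCAM, an adhesion protein that binds netrin-1, at -0.01 and -0.08. Against residual medium both were lower with either vesicle type, NTNG1 at -0.29 for each (adjusted p = 0.00689 and 0.00596) and MCAM at -0.27 and -0.35 (adjusted p = 0.0004 and 4.01e-05). All 4 genes thus differed there, 1 higher and 3 lower. NTNG1 had HPDE means of 1.39 FPKM in residual medium, 1.09 (untreated), 0.956 (PANC-1 EV) and 0.952 (PPCL-68 EV). Outside residual medium its libraries averaged just under 1 FPKM, so residual medium carried NTNG1 past the filter. Its p-values against residual medium, and its place among the 3 lower genes, are therefore no independent support. MCAM rose in residual medium in HPNE (0.86, adjusted p = 0.00667) and HPDE (0.27, adjusted p = 0.00328). So 1 of 4 rose and 1 of 4 fell with each vesicle type against untreated cells in HPDE. In residual medium 1 of 4 rose there and 1 of 1 rose in HPNE. Of all genes, 60.6% (PANC-1 EV) and 66.3% (PPCL-68 EV) differed from untreated cells in HPDE. For residual medium the all-gene shares were 20% in HPDE and 43.9% in HPNE.

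Laminin chains and laminin-binding integrins, partners of netrin-4 and netrin-1, numbered 10 tested in HPNE and 12 in HPDE. Against untreated HPNE cells, PANC-1 EV raised 1 and lowered 1 (20% of the listed genes tested), and PPCL-68 EV raised 2 and lowered 5 (70%). Residual medium raised 4 and lowered 5 there (90%). Among all genes, 21.1%, 42.5% and 43.9% differed with these treatments. For HPDE, PANC-1 EV raised 5 and lowered 3 (66.7%), and PPCL-68 EV raised 5 and lowered 5 (83.3%). Residual medium raised 3 and lowered 6 in that line (75%). Its all-gene shares were 60.6% (PANC-1 EV), 66.3% (PPCL-68 EV) and 20% (residual medium). LAMB3, a chain of laminin-332, had 649 ± 30.4 FPKM in untreated HPDE and rose by 1.22 with PANC-1 EV (adjusted p = 9.68e-11) and by 1.55 with PPCL-68 EV (adjusted p = 5.94e-12). LAMB3 rose in HPNE too with PPCL-68 EV (1.31, adjusted p = 0.00045) and in residual medium (1.14, adjusted p = 0.00159). With PANC-1 EV in HPNE it rose by 0.66 (adjusted p = 0.0373), a call lost in 8 of 19 alternatives. In HPDE residual medium it rose by 0.21 (adjusted p = 0.0132), a call lost in 3 of 18. ITGA2, a collagen and laminin receptor subunit, rose in HPDE with both vesicle types (0.71 and 1.25) and did not pass with them in HPNE (0.80 and 0.63, adjusted p = 0.0563 and 0.0834). It rose in HPNE residual medium (0.93, adjusted p = 0.0190), a call lost in 5 of 19 alternatives. LAMA5, a laminin chain of mature basement membranes, fell in HPNE with PPCL-68 EV (-1.27, adjusted p = 0.000275) and in residual medium (-1.53, adjusted p = 0.000168). With PANC-1 EV in HPNE it fell by 0.66 (adjusted p = 0.0233), a call lost in 4 of 19 alternatives. In HPDE it fell with PANC-1 EV (-0.47, adjusted p = 0.000701), PPCL-68 EV (-0.32, adjusted p = 0.00988) and in residual medium (-0.37, adjusted p = 0.0157). The last 2 calls were lost without a filter and without PPCL-68 EV replicate 1, or untreated or residual medium replicate 2, respectively.

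Of cytoplasmic signalling proteins of netrin receptors, 21 were tested in HPNE and 23 in HPDE. Against untreated cells, 6 rose and 0 fell with PANC-1 EV and 7 and 1 with PPCL-68 EV in HPNE, and 9 and 7 and 12 and 6 in HPDE. These are 28.6%, 38.1%, 69.6% and 78.3% of the genes tested, against 21.1%, 42.5%, 60.6% and 66.3% of all genes. Against residual medium the HPNE counts were 5 and 1 for PANC-1 EV and 7 and 7 for PPCL-68 EV, or 28.6% and 66.7%. The all-gene shares there were 24.2% and 39.9%. In residual medium 6 rose and 5 fell in HPNE, and 1 rose and 4 fell in HPDE, or 52.4% and 21.7% against 43.9% and 20% of all genes. FYN, a Src family kinase that acts below netrin receptors, rose in all 4 vesicle comparisons, in HPNE by 0.67 and 0.76 (adjusted p = 0.00774 and 0.00139), in HPDE by 0.42 and 1.00 (adjusted p = 1.13e-05 and 9.53e-10). ARHGEF2, an activator of RhoA, likewise rose in each (HPNE 0.46 and 0.48, HPDE 0.90 and 0.95). In residual medium ARHGEF2 rose in HPDE (0.41, adjusted p = 1.29e-05) and fell in HPNE (-0.36, adjusted p = 0.0154, lost in 5 of 19 alternatives). EVL, an actin regulator of the Ena/VASP family, fell with PPCL-68 EV in HPNE (-1.17, adjusted p = 0.000608) and HPDE (-0.66, adjusted p = 1.70e-07), and in HPDE also with PANC-1 EV (-0.21, adjusted p = 0.00587). It fell in HPNE residual medium as well (-0.65, adjusted p = 0.0174, lost in 3 of 19 alternatives).

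Proteins of the death signal of unliganded UNC5 receptors and DCC gave 7 tested genes in each line. Against untreated cells, 0 rose and 1 fell with PANC-1 EV, 2 rose and 2 fell with PPCL-68 EV and 2 rose and 1 fell in residual medium in HPNE. In HPDE 0 and 3, 2 and 3, and 0 and 1 did. In the same order these were 14.3%, 57.1% and 42.9% of the genes tested in HPNE, against 21.1%, 42.5% and 43.9% of all genes. In HPDE they were 42.9%, 71.4% and 14.3%, against 60.6%, 66.3% and 20%. MAGED1, also called NRAGE, which binds the tail of UNC5 receptors, fell in all 4 vesicle comparisons: -0.40 and -1.17 in HPNE (adjusted p = 0.0183 and 1.33e-05), -0.63 and -0.98 in HPDE (adjusted p = 2.61e-07 and 1.76e-09). Its call for PANC-1 EV in HPNE was lost without untreated replicate 2 or PANC-1 EV replicate 2 or 3. PPP2R1B, a scaffold subunit of protein phosphatase 2A, fell in HPDE with both vesicle types (PANC-1 -0.58, PPCL-68 -0.27), and rose in residual medium in HPNE (0.46, adjusted p = 0.00738).

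Other dependence receptors had 6 tested genes in each line. In HPNE 2 rose and 3 fell in residual medium, 0 and 1 with PANC-1 EV, and 0 and 2 under PPCL-68 EV, while in HPDE the counts in that order were 1 and 1, 2 and 2, and 2 and 1. These were 83.3%, 16.7% and 33.3% of the genes tested in HPNE, against 43.9%, 21.1% and 42.5% of all genes. In HPDE they were 33.3%, 66.7% and 50%, against 20%, 60.6% and 66.3%. PLXND1, a semaphorin receptor, had 69.7 ± 8.07 FPKM in untreated HPNE and fell with PANC-1 EV (-0.96, adjusted p = 0.00353), PPCL-68 EV (-1.77, adjusted p = 2.79e-05) and residual medium (-1.72, adjusted p = 6.35e-05). In HPDE it fell with PANC-1 EV (-0.28, adjusted p = 0.00436). NOTCH3 fell in HPNE with PPCL-68 EV (-1.32, adjusted p = 0.00512) and in residual medium (-1.61, adjusted p = 0.00234). In HPDE it rose in residual medium (0.69, adjusted p = 0.000693), where its mean was 1.91 FPKM. Its remaining HPDE means were 0.800 FPKM (untreated), 1.09 (PANC-1 EV) and 1.003 (PPCL-68 EV). Residual medium alone thus carried NOTCH3 past the filter in HPDE, so that p-value is no independent support. The call was kept in the fit without a filter. MET, the receptor of hepatocyte growth factor, rose in HPDE with both vesicle types (PANC-1 0.48, PPCL-68 0.24) and in HPNE in residual medium (1.08, adjusted p = 0.00556).

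Guidance ligands and receptors outside the netrin system gave 18 tested genes in HPNE and 20 in HPDE. With PANC-1 EV, PPCL-68 EV and residual medium, 5, 6 and 6 rose and 4, 7 and 4 fell in HPNE, and 9, 8 and 2 rose and 6, 10 and 6 fell in HPDE. In that order these were 50%, 72.2% and 55.6% of the genes tested in HPNE, against 21.1%, 42.5% and 43.9% of all genes. In HPDE they were 75%, 90% and 40%, against 60.6%, 66.3% and 20%. EPHA2, an ephrin receptor, rose with PPCL-68 EV in HPNE (1.62, adjusted p = 0.00387) and, in HPDE, with PPCL-68 EV (0.76, adjusted p = 2.36e-09) as well as PANC-1 EV (0.77, adjusted p = 3.11e-09). In HPNE it also rose with PANC-1 EV (1.39, adjusted p = 0.0191) and in residual medium (1.23, adjusted p = 0.0173). These 2 calls were lost in 5 and 4 of 19 alternatives. EFNB1, an ephrin ligand, fell with PANC-1 EV, PPCL-68 EV and residual medium in HPNE (-1.14, -1.64 and -1.59) and with both vesicle types in HPDE (-0.57 and -0.73). NRP1, a co-receptor of semaphorins and VEGF, rose in HPDE from 9.38 ± 0.191 FPKM to 18.6 ± 0.166 (PANC-1 EV) and 37.8 ± 2.56 (PPCL-68 EV), differences of 0.92 and 1.90 (adjusted p = 3.41e-09 and 1.26e-12). It fell in HPDE residual medium (-0.27, adjusted p = 0.00371). In HPNE it rose with PANC-1 EV (0.33, adjusted p = 0.0282, lost in 4 of 19 alternatives) and PPCL-68 EV (0.36, adjusted p = 0.00869). Over the 18 genes that the naming rule took from the lists, 76 differences from untreated cells passed the threshold. Of these, 60 passed under every alternative run and none changed direction under any. The rule picked genes for large differences in these same libraries, so this stability was favoured by the choice and is no independent support.

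Genes whose pattern was most like that of UNC5B were ranked by Pearson's r of log2(FPKM + 1) over the 12 libraries of a line, which share their groups and therefore the low residual medium level. In HPNE they were PTPN13 (r = 0.994), a tyrosine phosphatase, JMY (0.987), an actin nucleator, NUPR1 (0.984), a stress-induced nuclear protein, AVPI1 (0.983) and RABGAP1 (0.981). NUPR1 had a mean of 173 FPKM in untreated cells, 64.7 in residual medium, 177 under PANC-1 EV and 206 under PPCL-68 EV. PTPN13 had 11.4, 5.58, 11.4 and 11.8 FPKM in the same order. All 5 were lowest in residual medium, and in each of them replicate 3 was the highest of that group, as for UNC5B.

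**Figure D5:**
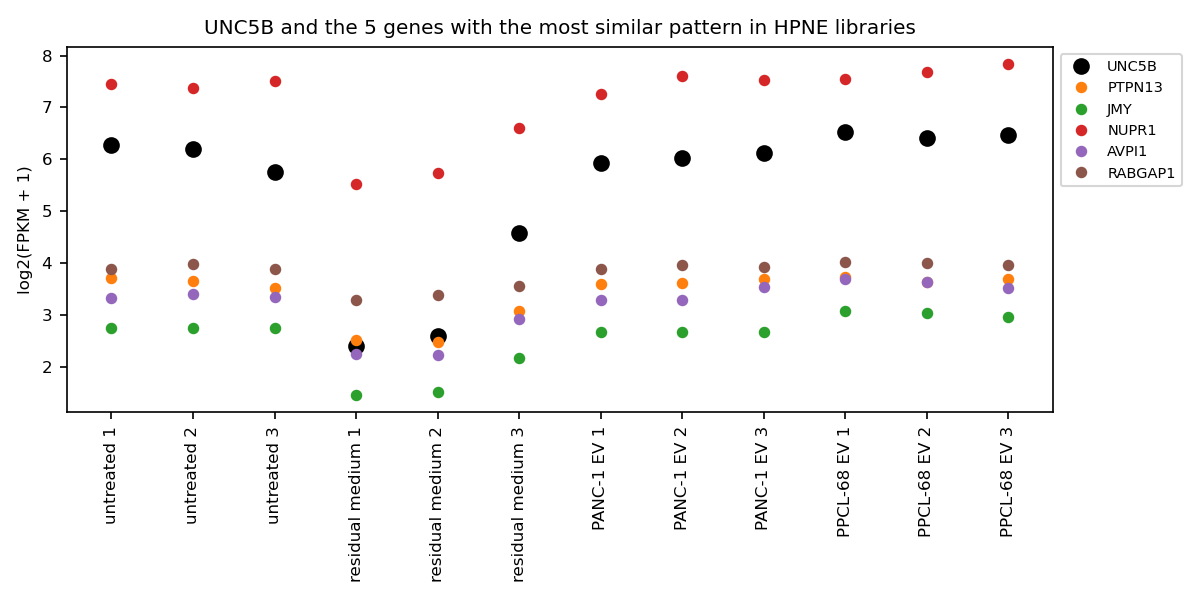
log2(FPKM + 1) of UNC5B (large black points) and of the 5 genes with the highest correlation with it, in the 12 HPNE libraries. All 6 genes are lowest in residual medium, where replicate 3 lies above replicates 1 and 2; UNC5B spans the widest range.

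In HPDE a different set led: MAML1 (r = 0.987), a Notch coactivator, GFOD1 (0.987), FBRS (0.983), ZSWIM8 (0.980) and PRSS16 (0.980), each highest with PPCL-68 EV. FBRS, for instance, had a mean of 22.6 FPKM in untreated cells, 23.3 in residual medium, 25.7 under PANC-1 EV and 37.2 under PPCL-68 EV. For NTN4, the 3 most alike genes in HPNE were RP11-156P1.3 (r = 0.924), SLC16A4 (0.922), a monocarboxylate transporter, and VWA8 (0.920). SLC16A4 had 8.94, 4.69, 8.23 and 4.96 FPKM in untreated cells, residual medium, PANC-1 EV and PPCL-68 EV, with residual medium and PPCL-68 EV low as for NTN4. For NEO1 they were CYP1B1 (r = 0.986), a cytochrome P450, RHOQ (0.984), a small GTPase, and RP11-815M8.1 (0.979). CYP1B1 had 67.9, 19.2, 52.3 and 45.3 FPKM in the same order.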

How the data were processed

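RNA-seq was measured in 24 libraries, 3 in each of 8 groups, grouped by the sample titles. The authors deposited 1 table of FPKM values (reads scaled to gene length and library total) per library, with hg19 positions, gene lengths and symbols, per the file headers. CASAVA, STAR, HTSeq and DESeq2 are named in the submitters' processing notes, and their settings are not given in the sources used here. The kit was non-directional, per the labels' protocols. Multiplying FPKM by gene length gave whole reads (within 0.01 read) for 100.0% of values, which recovered the depth. The floor of 3 reads covers counting error alone, because PCR copies could not be told from separate molecules.

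limma 3.58.1 (R 4.3.3; lmFit, eBayes with a trend) was run on log2(FPKM + 1), a scale that shrinks differences of genes with low values, for genes with a mean of at least 1 FPKM. The 12 libraries of a line entered 1 fit, all 24 the comparisons between lines. Tests were two-sided, with Benjamini-Hochberg adjustment over all genes tested and a threshold of 0.05. The code was checked on simulated data. The members, the 7 lists of related genes and the alternatives were chosen with earlier results of these data known. All 5 members were named. From each list up to 3 genes were named, those with the largest absolute differences summed over the 4 comparisons of vesicles with untreated cells, if tested in both lines and past the threshold in at least 1. Of these, 1 gene is not reported here. The 5 genes most like UNC5B per line and the 3 most like NTN4 and NEO1 were named by correlation. Alternatives were a pseudocount of 0.1, no filter, size factors, voom on the recovered reads, the 6 libraries compared only, a replicate block, each library left out, and the 4 HPNE libraries that stood apart left out. Same-numbered libraries deviated together (all 3 correlations over 0.1) in 1 comparison, PANC-1 EV against PPCL-68 EV in HPNE (0.565, 0.292 and 0.500), though each did not correlate best with its own number.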

Additional observations from a re-analysis of the deposited data

Results flagged for a closer look

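NTN4 is listed here because its response differed between the lines in a test of the difference itself. The effect in HPDE minus the effect in HPNE, on the log2(FPKM + 1) scale and against untreated cells, was 0.95 for residual medium (limma, adjusted p = 0.00163), 0.60 for PANC-1 EV (adjusted p = 0.0393) and 1.47 for PPCL-68 EV (adjusted p = 1.65e-05). The call for PANC-1 EV was lost with size factors (adjusted p = 0.0869), without a filter (adjusted p = 0.0868), without the 4 HPNE libraries that stood apart (0.23, adjusted p = 0.0513) and without any 1 of 6 single libraries. In the same contrasts 38.1%, 23.2% and 40.6% of the 12377 genes tested differed between the lines. With PPCL-68 EV every HPDE library lay above every untreated one, and every HPNE library lay below every untreated one. Against residual medium, PPCL-68 EV lay at 0.24 in HPNE (given without a test) and at 0.76 in HPDE. Residual medium itself lay at -0.83 against untreated HPNE cells. The lines also differ in NTN4 level, spread between replicates and marker genes, whose part in the difference was not tested.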

How the results depend on the processing

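Over 35 tested results on the members and 745 alternative values, 703 kept their direction and their side of the threshold. Another 10 results were given without a test, and 3 of their 190 alternative values had the other sign, all for UNC5B in HPNE with PANC-1 EV against untreated cells (-0.06, with 0.0071 under size factors). Without a filter on low values, calls were lost for NEO1 in HPDE residual medium (-0.25), NTN4 between vesicle sources in HPDE (-0.22), NTN4 with PPCL-68 EV in HPNE (-0.58) and the NTN4 line difference for PANC-1 EV (0.60). Size factors ended the call for NTN4 with PPCL-68 EV in HPNE (-0.50) and that line difference (0.54). Without the 4 HPNE libraries that stood apart, that line difference was lost (0.23), and NTN4 in HPNE with PANC-1 EV against untreated cells (0.44) and against PPCL-68 EV (0.86), NEO1 in HPNE with each vesicle type (PANC-1 -0.30, PPCL-68 -0.41), and the NEO1 line differences for PPCL-68 EV (0.51) and residual medium (0.58) passed. The spread shrinks by construction there, and these differences also grew. voom called UNC5B in HPDE with PANC-1 EV against residual medium (0.32).

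With the replicate block, 33 of the 35 tested results kept their side of the threshold: NEO1 in HPDE residual medium lost it (-0.25) and NTN4 between vesicle sources in HPNE gained it (0.65). The numbers did not pair the samples elsewhere, with mean correlations from -0.43 to 0.21 in the other HPNE comparisons and from -0.14 to 0.03 in HPDE. Leaving out each library in turn gave ranges of -0.07 to 0.29 for NTN4 with PANC-1 EV in HPNE, whose sign turned in 4 cases (-0.03 and -0.073 without PANC-1 EV replicate 2 or 3, -0.012 and -0.010 without untreated replicate 1 or 2), -0.66 to -0.44 for NTN4 with PPCL-68 EV in HPNE, 0.51 to 0.87 for NTN4 between vesicle sources in HPNE and -0.27 to -0.17 in HPDE, 0.38 to 0.74 for the NTN4 line difference for PANC-1 EV, 0.31 to 0.46 and 0.26 to 0.52 for the NEO1 line differences for PPCL-68 EV and residual medium, and -0.28 to -0.20 for NEO1 in HPDE residual medium.

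Counts of all genes that differed moved from 2443 to 1527 without a filter (HPDE residual medium against untreated), from 629 to 335 without a filter and 319 with 6 libraries (HPNE PANC-1 EV against PPCL-68 EV), and from 2784 to 1417 with 6 libraries (HPNE PANC-1 EV against residual medium). Without the 4 libraries they reached 4186 to 8221 in HPNE. Size factors moved the median of all genes in HPNE residual medium against untreated cells from -0.05 to 0.06, and NTN4 and NEO1 there from -0.83 and -0.60 to -0.70 and -0.48. Except where stated, the causes were not tested. Depth limits UNC5C in both lines and NTN1 in HPNE to reads near the floor, and NTN1 in HPDE to 15 to 42 reads.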

Other observations

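The balance of receptor and ligand RNA differed between conditions. UNC5B FPKM divided by NTN4 FPKM in the same library ranged from 0.750 to 1.47 in untreated HPNE, from 2.13 to 2.47 with PPCL-68 EV, from 0.933 to 1.37 with PANC-1 EV and from 0.145 to 0.615 in residual medium. In HPDE the ratio ranged from 0.486 to 0.507 in untreated cells, from 0.386 to 0.419 in residual medium, from 0.369 to 0.452 under PPCL-68 EV and from 0.300 to 0.309 under PANC-1 EV. NTNG2, a membrane-anchored netrin that did not pass the filter on low values, ranged from 0.132 to 1.85 FPKM over the 12 HPNE libraries and from 0.0239 to 0.1004 FPKM in HPDE. UNC5B-AS1 had 10 to 11 reads per library in untreated HPNE, 5 to 13 with PPCL-68 EV, 1 to 8 with PANC-1 EV and 0 to 3 in residual medium.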
